A study of Mus musculus with 8 samples.

Results

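The subunits of the mitochondrial oxidative phosphorylation system, complexes I to V, were followed in mouse liver tumours, in the non-tumour tissue of the same livers and in livers of mice on normal diet. The members were taken by gene symbol from the probe-to-gene table of the array: Nduf subunits (families a, b, c, s and v), Sdha to Sdhd, Uqcr genes and Cyc1, Cox4 to Cox8 genes and Atp5 genes. This gave 85 of 19321 genes on the array, each read by its brightest probe. By symbol, 36 were counted for complex I, 4 for complex II, 10 for complex III, 18 for complex IV and 17 for complex V. Those of complex III include the pseudogene Uqcrh-ps1. Of the 85 members, 83 could be tested and were listed by the authors on all 8 arrays. The other two, Uqcrq of complex III and the testis isoform gene Cox8c of complex IV, were not listed on every array of any group.

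All animals had received DMBA, a polycyclic aromatic hydrocarbon carcinogen, at 4 to 5 days of age, followed by 30 weeks of high fat or normal diet. The groups were: high fat diet tumours (n = 3, mice 117, 186 and 1), non-tumour tissue of those same 3 livers (n = 3), and normal diet livers (n = 2, mice 117 and 120). The number 117 on normal diet belongs to a different animal. No liver without DMBA was included, and strain, sex and the number of tumours per liver are not given in the labels. Total RNA was read in a single colour (Cy5) on oligonucleotide arrays, 1 array per tissue sample. Wherever 3 values follow each other below they are those of mice 117, 186 and 1, and 2 values are those of normal diet livers 117 and 120.

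Complex I oxidises NADH and complex II oxidises succinate, and both hand electrons to coenzyme Q. Complex III passes them to cytochrome c and complex IV to oxygen, while complexes I, III and IV pump protons across the inner mitochondrial membrane. Complex V, the ATP synthase, lets the protons back in and makes ATP. Most subunits are encoded in the nucleus and imported. A few catalytic ones are encoded by mitochondrial DNA. The array table holds 0 genes with symbols that begin with mt-Nd, mt-Co, mt-Cyt or mt-Atp. Other forms of their names were not searched, and 2783 probes have no symbol. Hepatocytes are rich in mitochondria and use this system for ATP, for fatty acid oxidation and for the energy cost of urea and glucose synthesis.

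Signals below are linear normalized signals, that is, spot medians corrected for blank spots with 50 units added, then brought to the same distribution on all arrays. A fold change is a difference of mean log2 signals ± its standard error (SE). A gene passed where limma's p, adjusted by Benjamini-Hochberg over 16798 genes, was below 0.05. The added 50 understates the fold changes of dim probes. Arrays of one group correlated at 0.984 to 0.996 over all tested genes, and 81.8% to 88.5% of probes per array carried a deposited value. All 10 hepatocyte markers, albumin among them, were listed on all 8 arrays. A slope given in the file headers, that of the second on the first detector gain, differed between the diets. It was 0.464 to 0.465 on the 6 high fat diet arrays and 0.444 to 0.445 on the 2 normal diet arrays. What lay behind this difference is not known. For comparisons with normal diet livers, this difference and diet cannot be told apart.

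In each of the 5 complexes some subunit transcripts fell in the tumours, compared with the non-tumour tissue around them. Of the 83 members tested, 44 fell and 2 rose, while 37 did not pass. Across all genes tested, 13.4% fell and 12% rose (25.4% in either direction). The median log2 fold change was -0.37 over the members and -0.01 over all genes. Members were bright: the median percentile of their mean deposited intensity was 96.9, and 67 of 83 lay above the 90th percentile. The median normalized signal of all tested genes was 81.3 to 81.4 on tumour arrays, where the added units understate fold changes. Over members, level and fold change had a rank correlation of -0.314. All genes were not matched to the members for level, so the contrast is not like for like. Among members, 74 had a negative fold change, and 64 were lower in tumour than in non-tumour tissue in each of the 3 mice, against 31.9% of all genes. The median difference within a mouse was -0.35 in mouse 117, -0.40 in mouse 186 and -0.29 in mouse 1. In 51 members every tumour array lay below every non-tumour array (22.3% of all genes did so), and in 4 every tumour array lay above (19.1%). In bulk tissue, fewer mitochondria-rich cells and less RNA per cell cannot be told apart.

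**Figure D1:**
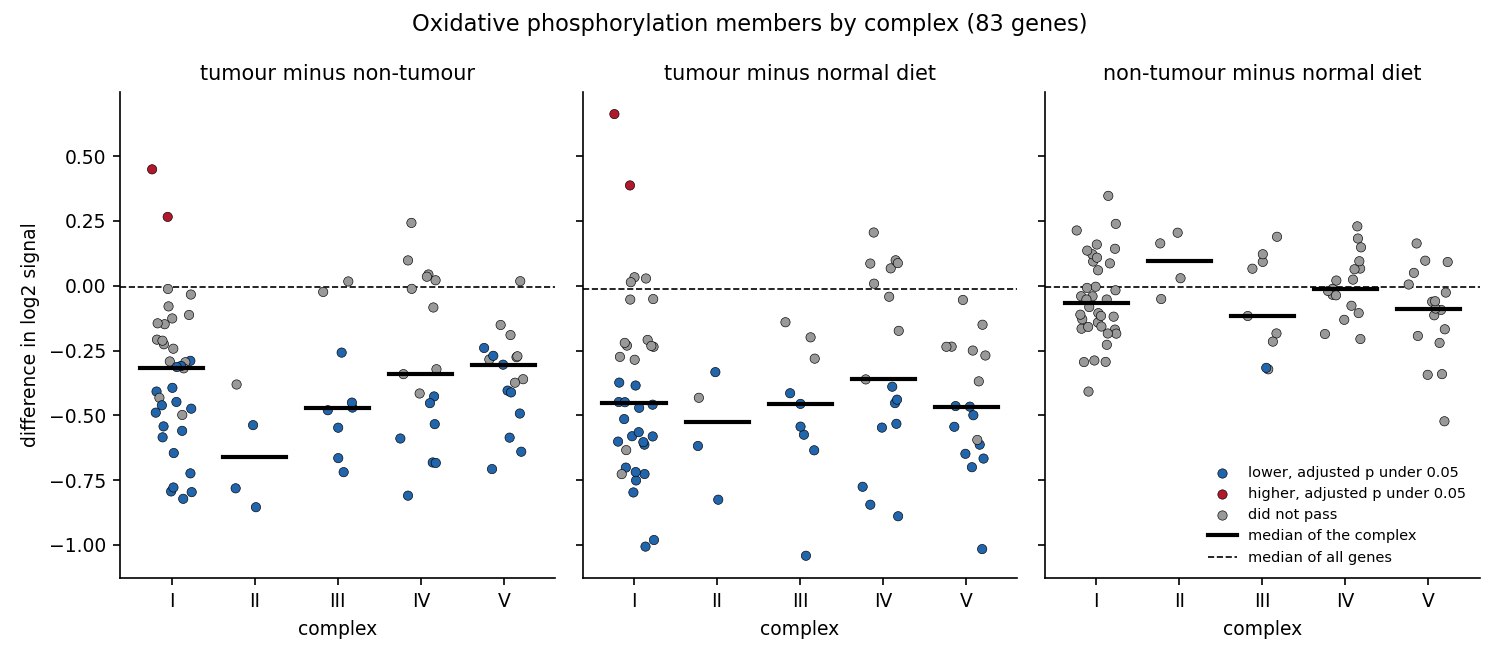
Difference in mean log2 signal of each of the 83 members (points), by complex, for tumour minus non-tumour, tumour minus normal diet and non-tumour minus normal diet. Coloured points passed limma's test, thick lines are the medians of each complex and the dashed line is the median of all genes; in the first 2 panels all 5 complex medians lie below it, at -0.30 to -0.66 for tumour minus non-tumour.

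Promoters of nuclear genes for these subunits are known for binding sites of nuclear respiratory factor 1 (NRF1), of ETS-family factors such as GABP, of YY1 and of estrogen-related receptors. Windows of 300 bases around the transcript start (250 before, 50 after) from RefSeq, build GRCm38.p6, were matched for 67 of the 85 members. Both strands were searched for the letters of each motif. The NRF1 palindrome (GCGCA, any base, then GCGC) stood in 16 of 67 member windows (23.9%) and in 4.78% of all 27025 gene windows. The ETS core CCGGAAG was found in 15 (22.4%, against 9.12%), the YY1 core AAGATGG in 10 (14.9%, against 6.48%) and the estrogen-related receptor element AAGGTCA in 8 (11.9%, against 4.66%). The GC-rich SP1 element GGGCGGG was present in 23 (34.3%, against 25.8%). Members that fell in tumours held an NRF1 match in 8 of 34 windows and members that did not pass in 8 of 32. Matches of the ETS core were likewise spread over both, 8 of 34 and 7 of 32. The YY1 core stood in 6 of 34 and 4 of 32, and the estrogen-related receptor element in 3 of 34 and 4 of 32. The SP1 element stood in 8 of 34 windows of members that fell and 15 of 32 of those that did not pass. These differences were not tested. A match is a string of letters and not a measured site.

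The 250 bases before the start are shown for 2 members with NRF1 matches that fell in tumours, Sdha and Ndufb4, and for 2 with such matches that did not pass, Cox6a1 and Sdhd. Each runs 5′ to 3′ on its gene's strand, which is the minus strand for all 4. Capitals mark the matches to the NRF1, ETS and estrogen-related receptor letters, none of which overlap in these windows.
Sdha (chr13:74350241-74350490): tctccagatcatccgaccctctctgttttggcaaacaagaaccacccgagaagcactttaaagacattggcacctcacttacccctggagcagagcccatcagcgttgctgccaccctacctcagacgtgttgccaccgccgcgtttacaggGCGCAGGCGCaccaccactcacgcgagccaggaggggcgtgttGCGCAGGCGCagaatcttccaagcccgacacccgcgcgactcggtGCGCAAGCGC
Ndufb4 (chr16:37654369-37654618): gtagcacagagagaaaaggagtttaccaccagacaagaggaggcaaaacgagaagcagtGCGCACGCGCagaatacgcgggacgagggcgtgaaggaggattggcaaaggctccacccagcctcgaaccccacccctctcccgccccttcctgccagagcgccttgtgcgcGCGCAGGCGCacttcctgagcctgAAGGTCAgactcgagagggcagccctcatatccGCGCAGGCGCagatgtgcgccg
Cox6a1 (chr5:115348959-115349208): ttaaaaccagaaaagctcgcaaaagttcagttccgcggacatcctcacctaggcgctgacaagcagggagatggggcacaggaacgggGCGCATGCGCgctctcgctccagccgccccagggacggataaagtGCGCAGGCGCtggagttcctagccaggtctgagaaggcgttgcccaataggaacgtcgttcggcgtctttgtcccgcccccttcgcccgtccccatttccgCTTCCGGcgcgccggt
Sdhd (chr9:50603850-50604099): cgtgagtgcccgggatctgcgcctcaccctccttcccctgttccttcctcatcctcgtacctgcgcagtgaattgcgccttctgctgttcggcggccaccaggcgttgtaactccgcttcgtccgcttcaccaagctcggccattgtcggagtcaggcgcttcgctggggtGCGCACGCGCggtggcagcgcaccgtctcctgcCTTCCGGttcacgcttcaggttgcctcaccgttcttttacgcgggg
In the Sdha window the 3 NRF1 matches end 89, 46 and 1 bases before the start. Ndufb4 carries 3 as well, with an estrogen-related receptor match 55 to 49 bases before the start. Cox6a1 holds 2 NRF1 matches, 162 to 153 and 117 to 108 bases before the start, and an ETS match close to it. Sdhd has 1 of each, the NRF1 match 79 to 70 and the ETS match 46 to 40 bases before the start.

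Complex II, succinate dehydrogenase, which also works in the citric acid cycle, had 3 of 4 subunit genes lower in tumours and a median log2 fold change of -0.66. Sdhb, the iron-sulfur subunit, read 893, 1050.5 and 931 in tumours, against 1655, 1689 and 1848 in non-tumour tissue and 1652 and 1737 in normal diet livers. The tumours stood apart from all 5 other arrays, and the log2 fold change against non-tumour tissue was -0.85 ± 0.07 (adjusted p = 0.000738), the largest fall of any member. Sdha, the flavoprotein that binds succinate, read 1493, 1825 and 1393.5 in tumours, 2403.5, 3359.7 and 2391 in non-tumour tissue and 2584 and 2220.5 in normal diet livers. Its fall of -0.78 ± 0.17 (adjusted p = 0.0164) did not pass without tumour array 117 (adjusted p = 0.0533, 0.00164 to 0.951 over all settings). The membrane anchor Sdhc fell by 0.54 ± 0.07 (adjusted p = 0.00327), with signals of 1329 to 1587 in tumours against 1973 to 2165 in non-tumour tissue.

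The other anchor, Sdhd, did not pass (-0.38 ± 0.22, adjusted p = 0.279). It read 2530, 2466 and 2067 in tumours and 3527.5, 3751 and 2153 in non-tumour tissue, so that the non-tumour array of mouse 1 lay within the range of the tumours. Normal diet livers read 2848 and 3517. Without non-tumour array 1 the fold change was -0.63 and passed (adjusted p = 0.0248, 0.0248 to 0.837 over all settings). Without non-tumour array 1, 7 members passed that did not pass with it, namely Sdhd, Atp5c1, Cox6b1, Cox7a2, Ndufa5, Ndufb3 and Ndufb10. The same fit also lost calls: of the 46 members called with all arrays 36 passed in it, and 43 members passed in total. Leaving out any other single array gained 0 to 3 members.

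Among the 36 genes counted under complex I by their symbols, 18 fell, 2 rose and 16 did not pass, with a median of -0.32. These counts include Ndufa4, now counted as a subunit of complex IV, and its paralogue Ndufa4l2. Core subunits, which carry the flavin and the iron-sulfur clusters, fell in 5 of 6 cases (median -0.47), and in 3 of 6 with blank subtraction. Of these calls Ndufv2 (-0.45 ± 0.13, adjusted p = 0.0487) did not pass in the paired fit, which takes mouse as a block (0.167 as adjusted p, and 0.0115 to 0.787 over all settings) or without any one array other than non-tumour array 1. Likewise Ndufs8 (-0.31 ± 0.08, adjusted p = 0.0346) did not pass without tumour array 117 or 186 or any one non-tumour array (0.00863 to 0.739 over all settings). The other subunits fell in 13 of 30 (median -0.30), and 2 of these 30 rose. By module, 4 of 9 fell in the NADH-oxidising part, 2 of 4 in the quinone-reducing part and 6 of 9 in the distal membrane arm made of Ndufb subunits.

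Ndufv1, which binds NADH and the flavin, read 611, 723 and 599.9 in tumours, against 963, 1231.5 and 1235 in non-tumour tissue and 1214 and 1372.5 in normal diet livers. The highest tumour lay below the lowest liver of either other group (-0.82 ± 0.12 against non-tumour tissue, adjusted p = 0.00471). Ndufs1, the largest iron-sulfur subunit, read 321, 343 and 290.4 in tumours, 553, 547 and 534 in non-tumour tissue and 485 and 563 in normal diet livers (-0.78 ± 0.08, adjusted p = 0.00115). Ndufb9, of the distal membrane arm, hardly varied within groups. It read 1707, 1699 and 1705 in tumours, against 2872, 2947 and 3060 in non-tumour tissue and 3488 and 3243 in normal diet livers, a fall of 0.80 ± 0.04 (adjusted p = 0.000155). Ndufb8, of the same arm and often used as a label of assembled complex I, read 932 to 1105 in tumours and 1710.5 to 1829 in non-tumour tissue (-0.79 ± 0.07, adjusted p = 0.000687).

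Other subunits of complex I fell as well. Ndufa10 read 879.8, 1129.5 and 953 in tumours, against 1403, 1729 and 1759.8 in non-tumour tissue and 1477 and 1462 in normal diet livers (-0.72 ± 0.12, adjusted p = 0.00656). Ndufb7, a membrane-arm subunit that faces the intermembrane space, read 1099, 1032 and 1099 in tumours, 1629, 1661 and 1555 in non-tumour tissue and 1479 and 1460.0 in normal diet livers (-0.59 ± 0.04, adjusted p = 0.000413). Both had gaps between tumours and each other group. Ndufa9, at the joint of the peripheral and membrane arms, fell by 0.54 ± 0.07 (adjusted p = 0.00301), Ndufb5 by 0.56 ± 0.08 (adjusted p = 0.00332), Ndufs7 by 0.49 ± 0.08 (adjusted p = 0.0058) and Ndufb11 by 0.41 ± 0.07 (adjusted p = 0.00667). These 6 passed under every setting other than the local background. Ndufs3, a core subunit of the quinone-reducing part, read 1984, 1763 and 1388 in tumours and 2191, 2100.2 and 1639.9 in non-tumour tissue. It was lower in the tumour of each mouse, but the groups overlapped (-0.21 ± 0.16, adjusted p = 0.401), and it passed in the paired fit (0.0357 as adjusted p). Ndufa13 (-0.08 ± 0.12, adjusted p = 0.708) and Ndufs4 (-0.15 ± 0.14, adjusted p = 0.522) did not pass. Ndufa11b fell by 0.29 ± 0.07 (adjusted p = 0.0246), a call lost with blank subtraction and without tumour array 186 or 1 or non-tumour array 117 (0.016 to 0.963 over all settings). Its paralogue Ndufa11 (-0.21 ± 0.08, adjusted p = 0.104) had no overlap between tumour and non-tumour arrays and passed as lower in the paired fit (0.0417 as adjusted p), under scaling to the same median and with the authors' values (0.0244 to 0.915 over all settings). The probes of such near copies may read each other's transcript.

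Ndufa4 carries a complex I name but is now counted as a subunit of complex IV. It read 2336, 2395 and 2762 in tumours, against 3692, 4012 and 3996 in non-tumour tissue and 4185 and 4201.5 in normal diet livers, and fell by 0.65 ± 0.07 (adjusted p = 0.00151). Its paralogue Ndufa4l2, known as a hypoxia-inducible gene that replaces Ndufa4 in some settings, went the other way. Ndufa4l2 read 221, 259.6 and 218 in tumours, 175, 167 and 168 in non-tumour tissue and 145 and 149 in normal diet livers, with no overlap between tumours and the other groups. The rise of 0.45 ± 0.07 passed (adjusted p = 0.00503) and also with mouse as a block (adjusted p = 0.0348, 0.00166 to 0.445 over all settings).

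The second member to rise was Ndufb2, a small membrane-arm subunit whose probe was dim. It read 71.3, 78.9 and 84.25 in tumours, against 64.9, 63.7 and 66.0 in non-tumour tissue and 59.4 and 59.85 in normal diet livers, of which 50 are the added units. The rise of 0.27 ± 0.06 (adjusted p = 0.0197) did not pass in the paired fit (0.0535 as adjusted p) or without any one of 4 arrays, tumour 186 or non-tumour 117, 186 or 1 (adjusted p = 0.0504 to 0.0634, 0.0051 to 0.928 over all settings). Ndufa3 and Ndufc1 were near the floor in all groups. Ndufa3 averaged 4.57 ± 0.81 in tumours, 5.00 ± 1.31 in non-tumour tissue and 6.65 ± 1.77 in normal diet livers in deposited units (SD), on which the median probe of an array is 25.

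In complex III 7 of 9 tested genes fell and 0 rose (limma, and 0 at an unadjusted p under 0.05), with a median of -0.47, and 4 of 9 fell with blank subtraction. The 9 include the pseudogene Uqcrh-ps1, which did not pass. Cyc1, which encodes cytochrome c1, read 859.7, 1113.5 and 867 in tumours, against 1578.5, 1682 and 1396 in non-tumour tissue and 1737 and 2156 in normal diet livers. All tumour values were below all others (-0.72 ± 0.14 against non-tumour tissue, adjusted p = 0.0108). Uqcrfs1, the Rieske iron-sulfur protein, read 1257, 1274 and 1190.3 in tumours, 1776, 2207 and 1940.6 in non-tumour tissue and 1853 and 1763 in normal diet livers (-0.67 ± 0.08, adjusted p = 0.00212). Both core proteins fell as well. Uqcrc2 fell by 0.55 ± 0.11 (adjusted p = 0.0149), a call lost without non-tumour array 117 (adjusted p = 0.0511, 0.0021 to 0.953 over all settings). Uqcrc1 fell by 0.45 ± 0.12 (adjusted p = 0.0364), which did not pass when mouse was a block (0.0783 as adjusted p) or without tumour array 117 or 1 or any one non-tumour array (adjusted p = 0.0777 to 0.108, 0.00319 to 0.534 over all settings).

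The ubiquinone-binding subunit Uqcrb fell by 0.48 ± 0.11 (adjusted p = 0.0219), and did not pass without tumour array 186 or 1 or non-tumour array 117 or 1 (adjusted p = 0.0560 to 0.0594, 0.00597 to 0.277 over all settings). The hinge protein gene Uqcrh read 1851, 1346 and 1633 in tumours, 1877, 1543.5 and 1358 in non-tumour tissue and 1714.5 and 1959.8 in normal diet livers. The groups overlapped (0.02 ± 0.16, adjusted p = 0.958). The pseudogene probe Uqcrh-ps1, whose sequence is a near copy, also showed no difference that passed (-0.02 ± 0.11, adjusted p = 0.910), and the 2 probes may read the same transcript.

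Of the 17 tested genes counted under complex IV by their symbols 7 fell and 0 rose (limma, and 0 at an unadjusted p under 0.05), with a median of -0.34. Ndufa4, which fell, and Ndufa4l2, which rose, are not in these counts. Cox5b, a zinc-binding subunit on the matrix side, read 1737, 2098 and 1923.5 in tumours, against 3217, 3467 and 3389 in non-tumour tissue and 3351 and 3527.5 in normal diet livers. Its fall of 0.81 ± 0.07 (adjusted p = 0.000826) left a clear gap between tumours and both other groups. Cox5a read 1877, 2069 and 2034 in tumours, 3261, 2985.5 and 3351 in non-tumour tissue and 2627 and 2829 in normal diet livers (-0.68 ± 0.06, adjusted p = 0.000831). Cox6c read 2817 to 3657 in tumours, 4868.5 to 5458.5 in non-tumour tissue and 5954 to 6065 in normal diet livers (-0.68 ± 0.10, adjusted p = 0.00389). Cox7b fell by 0.59 ± 0.07 (adjusted p = 0.00236), Cox7c by 0.45 ± 0.07 (adjusted p = 0.00531) and Cox8a by 0.53 ± 0.10 (adjusted p = 0.0102).

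Cox4i1, the main isoform of the regulatory subunit IV, read 4914.5, 5175 and 4422 in tumours, against 6267, 6065 and 7195 in non-tumour tissue and 6928 and 7041 in normal diet livers. Its fall of 0.43 ± 0.08 (adjusted p = 0.0112) did not pass with mouse as a block (adjusted p = 0.0784, 0.000634 to 0.589 over all settings). Cox6a1 did not pass. It read 9003, 8453 and 6797 in tumours, 8453, 8750.2 and 8327 in non-tumour tissue and 7302 and 7702.5 in normal diet livers (-0.08 ± 0.10, adjusted p = 0.621). Under scaling to the same median (-0.38, adjusted p = 0.0337) and with the authors' values (-0.42, adjusted p = 0.0432) it passed as lower, and over all settings adjusted p was 0.0337 to 0.954. Cox7a2l, which is known to join complexes III and IV into supercomplexes, read 1036, 845 and 1149 in tumours and 780.4, 809 and 962 in non-tumour tissue (0.24 ± 0.13, adjusted p = 0.240).

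The isoforms typical of muscle, lung, testis or low oxygen formed a group of 8 genes, of which 7 were tested. One of them rose, Ndufa4l2, and 0 fell (limma, against 1 at an unadjusted p under 0.05 and 1 with the authors' values), with a median of 0.03. Cox4i2, Cox6a2, Cox6b2, Cox7a1, Cox7b2 and Cox8b did not pass. The muscle isoform Cox7a1 read 84.7, 77.9 and 89.5 in tumours and 93.6, 116 and 106 in non-tumour tissue (-0.32 ± 0.10, adjusted p = 0.0657). Cox7a1 passed as lower without non-tumour array 117 (adjusted p = 0.0428, 0.0393 to 0.485 over all settings). Muscle markers were dim on all arrays: 0 of 5 tested passed (limma, 1 at an unadjusted p under 0.05), Myh1 was not listed, and the summed deposited level of the others was 24.1 to 35.7 in tumours, 26.2 to 31.3 in non-tumour tissue and 27.3 to 30.4 in normal diet livers.

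In complex V, 9 of 17 genes fell and 0 rose (limma, and 0 at an unadjusted p under 0.05), with a median of -0.30. The catalytic head was represented by Atp5a1 and Atp5b, the alpha and beta subunits that bind the nucleotides. Atp5a1 read 2259, 2036 and 1853 in tumours, against 3321, 3709.9 and 3013 in non-tumour tissue and 2817 and 3150.5 in normal diet livers. It fell by 0.71 ± 0.10 (adjusted p = 0.00424) with no overlap between tumours and livers. Atp5b read 5075, 5768 and 4012 in tumours, 7302, 7625 and 7139 in non-tumour tissue and 7827 and 8091 in normal diet livers. The fall of 0.59 ± 0.12 in Atp5b (adjusted p = 0.0164) did not pass without non-tumour array 186 (adjusted p = 0.0543, 0.00114 to 0.763 over all settings). The central shaft subunit Atp5c1 read 3757.5, 3476 and 2935 in tumours and 4447, 4580.5 and 3339 in non-tumour tissue. Its groups overlapped (-0.28 ± 0.14, adjusted p = 0.218), although Atp5c1 was lower in the tumour of each mouse and passed with mouse as a block (adjusted p = 0.0462, 0.0288 to 0.497 over all settings).

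Among membrane subunits, Atp5k, the e subunit found where ATP synthases pair up, fell by 0.64 ± 0.07 (adjusted p = 0.00147), with 1195 to 1237 in tumours against 1753 to 2007.5 in non-tumour tissue. Atp5md fell by 0.49 ± 0.12 (adjusted p = 0.0279) and did not pass without tumour array 117 or 186 or non-tumour array 117 or 1 (adjusted p = 0.0693 to 0.0887, 0.00979 to 0.962 over all settings). Of the peripheral stalk genes, 3 of 4 fell (Atp5h, Atp5j and Atp5o), and 2 of 4 with blank subtraction. Atp5j did not pass with blank subtraction, offset 16, no filter, only the compared groups fitted or array weights. It also did not pass without any one array other than tumour 117 and non-tumour 186. Atp5o did not pass without non-tumour array 186. The remaining stalk gene, Atp5pb, read 4122, 3284.5 and 3181 in tumours and 5794, 4399.6 and 3679 in non-tumour tissue. It was lower in each tumour than in its own liver (-0.37 ± 0.18, adjusted p = 0.199, and 0.0413 in the paired fit). The 3 genes for the identical c subunit of the proton-driven ring differed. Atp5g1 fell by 0.30 ± 0.08 (adjusted p = 0.0358), a call lost in the paired fit (0.0726 as adjusted p) and without any one array other than tumour 186 and non-tumour 117 (adjusted p = 0.0617 to 0.108, 0.00378 to 0.788 over all settings). Atp5g2 (0.02 ± 0.11, adjusted p = 0.934) and Atp5g3 (-0.15 ± 0.20, adjusted p = 0.650) did not pass.

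**Figure D2:**
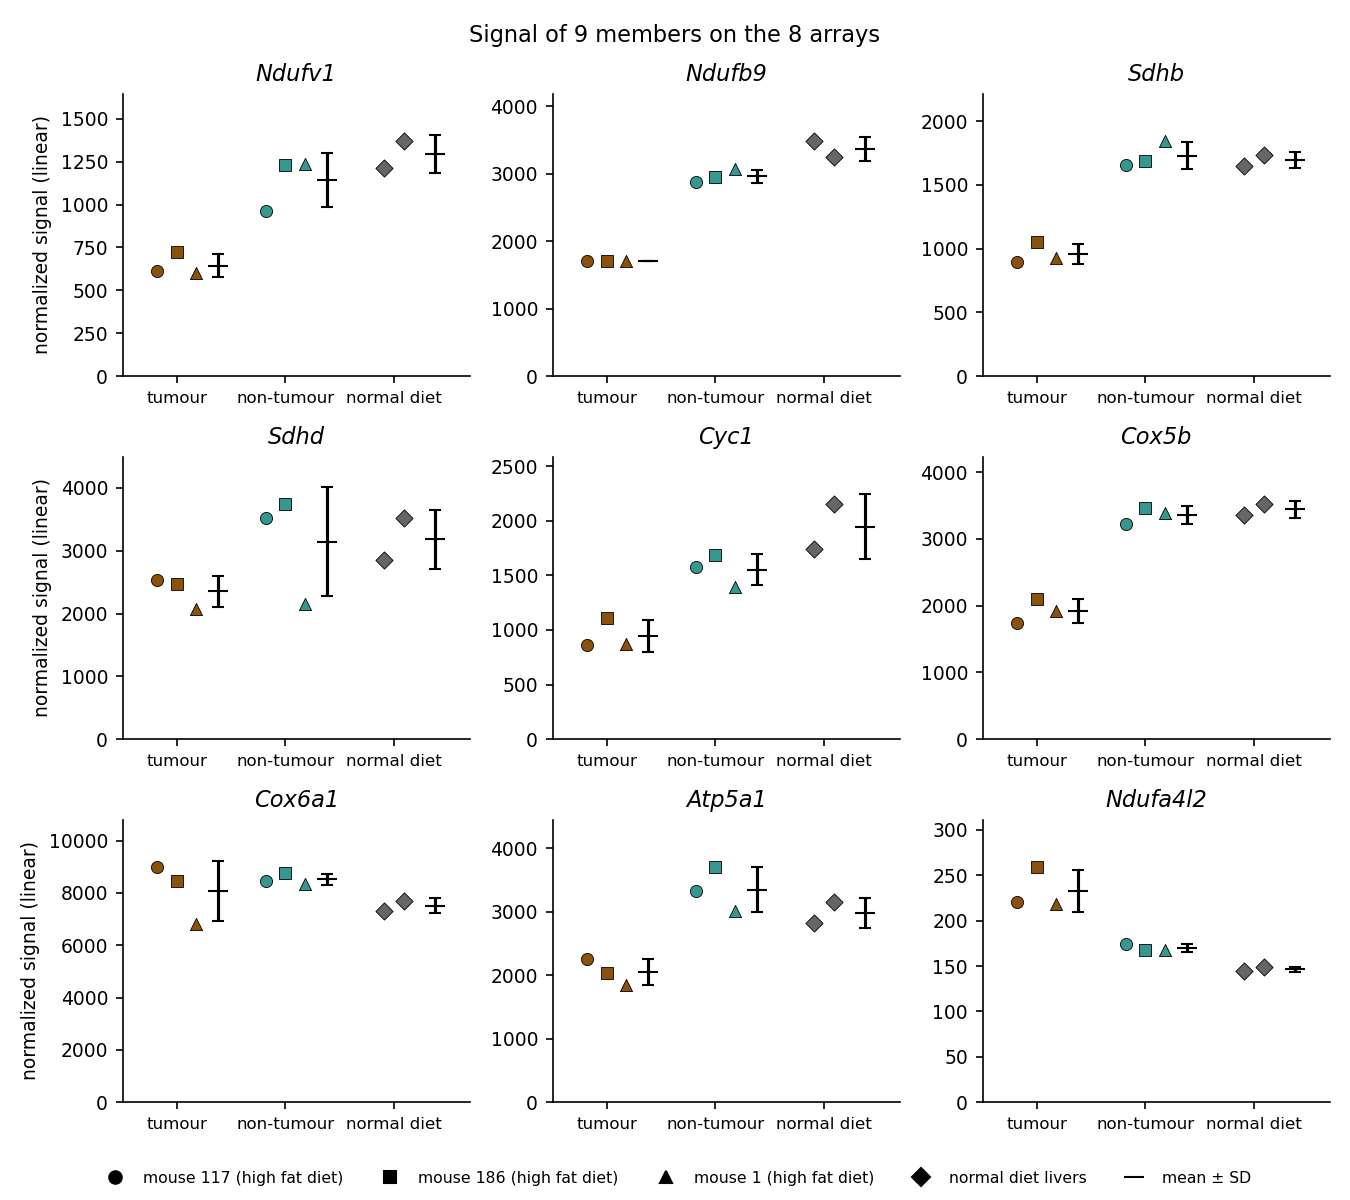
Linear normalized signal of 9 members on each of the 8 arrays, with the mean ± SD of each group beside the points (n = 3, 3 and 2); symbols give the mouse and axes start at 0. Tumours lie below every liver array for Ndufv1, Ndufb9, Sdhb, Cyc1, Cox5b and Atp5a1, overlap with livers for Sdhd and Cox6a1, and lie above them for Ndufa4l2.

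Mouse as a block gave the same number of calls, 46, of which 1 rose and 45 fell, and called 3495 of all genes against 4268 without it. Of the 46 members called without the block, 39 were called with it, and Atp5g1, Atp5j2, Cox4i1, Ndufb2, Ndufc2, Ndufv2 and Uqcrc1 were not. Leaving out each array in turn left 33 to 43 members and 3118 to 4191 of all genes called, and 28 of the 46 were called every time. Normexp with the local spot background, a reading that rose with the spot's signal (rank correlations of 0.902 to 0.960), called 0 members (12 lower and 1 higher at an unadjusted p under 0.05) and 126 of all genes, with a members' median of -0.44.

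**Figure D3:**
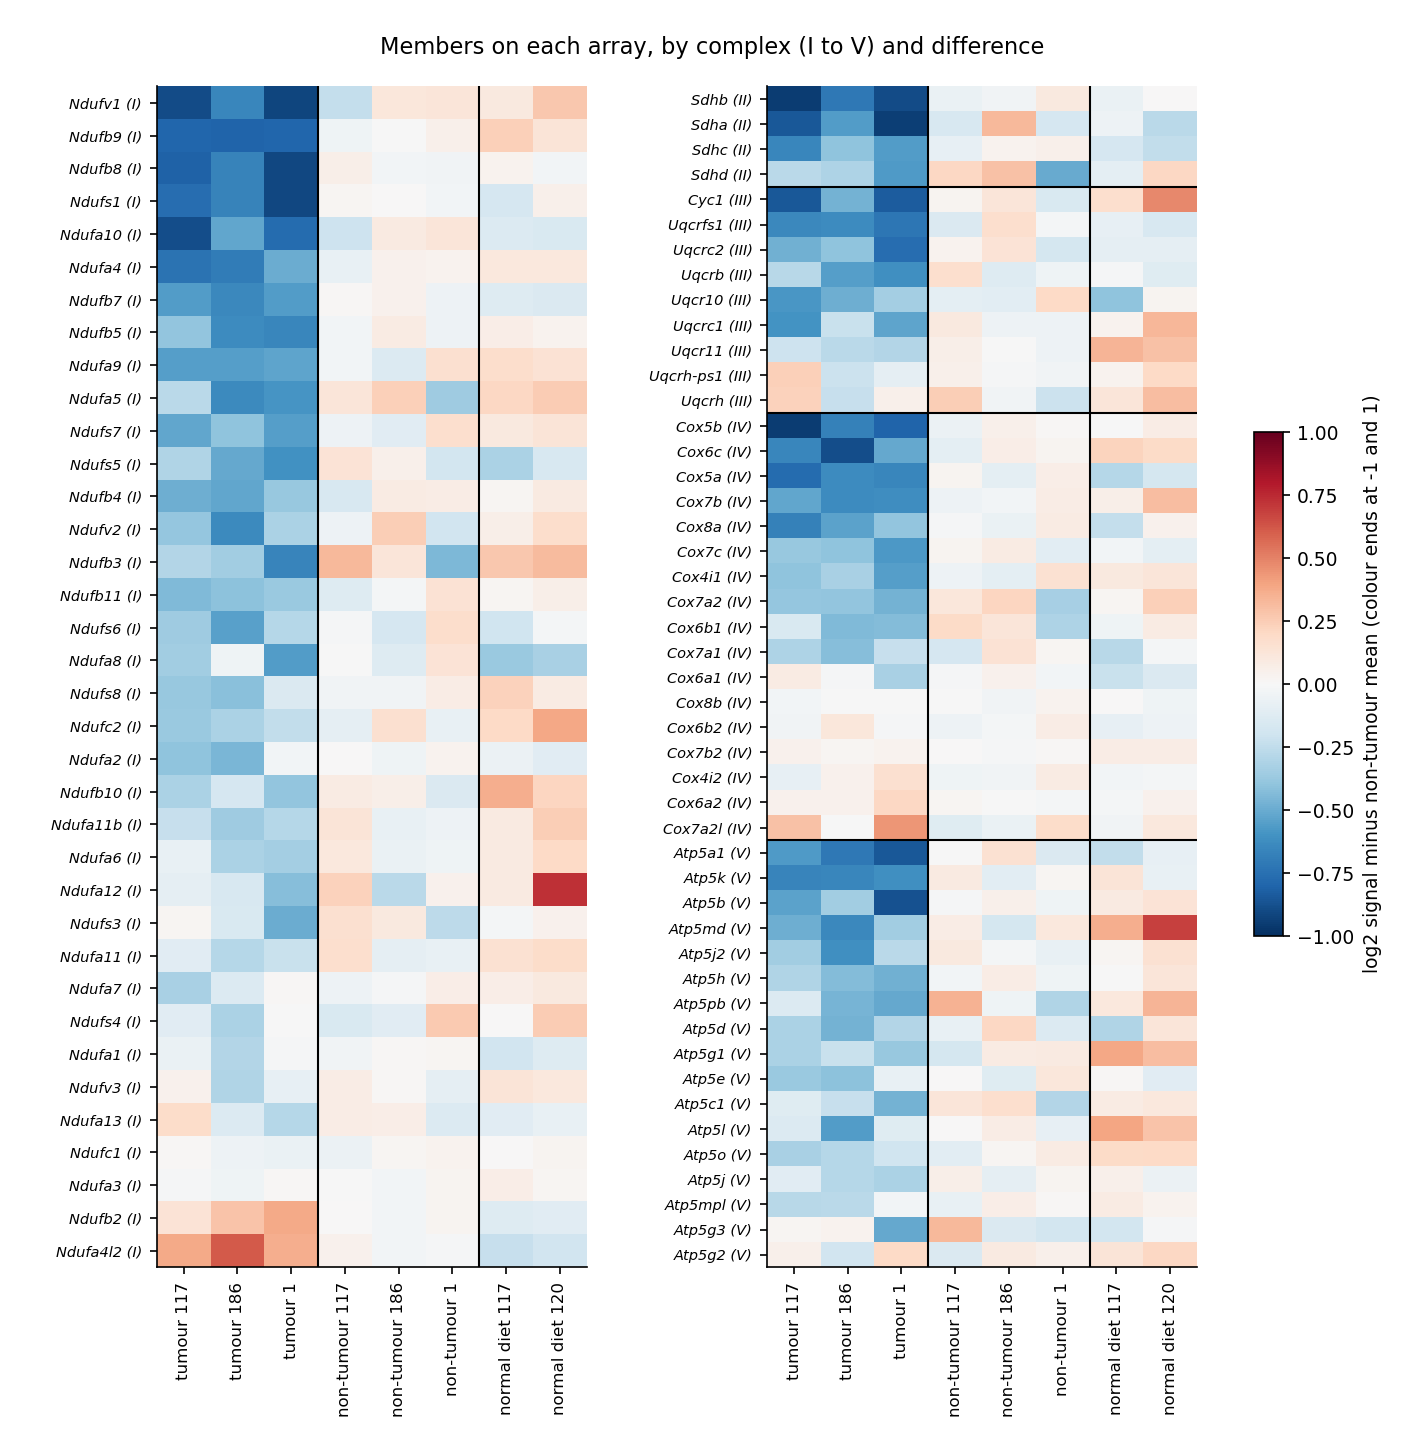
Log2 signal of each tested member on each array minus the mean of the 3 non-tumour arrays, complex I on the left and complexes II to V on the right, ordered within a complex by the tumour minus non-tumour difference. Most rows are blue in all 3 tumours, and Ndufa4l2 and Ndufb2 are red there.

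Tumours were also set against normal diet livers. Of 83 members 46 were lower and 2 higher, where 15% of all genes were lower and 12.9% higher (27.9% in either direction), and the median was -0.45. In 60 members every tumour lay below both normal diet livers (31.8% of all genes), and in 3 above (25.5%). This comparison shares the tumour arrays with the one above and is not independent of it. Cyc1 had the largest fall, -1.04 ± 0.15 (adjusted p = 0.00392), followed by Atp5md at -1.02 ± 0.14 (adjusted p = 0.00297) and Ndufv1 at -1.01 ± 0.14 (adjusted p = 0.00321). Sdhb fell by 0.83 ± 0.08 (adjusted p = 0.00101), Cox6c by 0.89 ± 0.11 (adjusted p = 0.00216) and Cox5b by 0.85 ± 0.08 (adjusted p = 0.000892). Sdha was near the threshold (-0.62 ± 0.19, adjusted p = 0.0499) and did not pass without tumour array 117 or 1, non-tumour array 117 or 1, or either normal diet array (adjusted p = 0.0618 to 0.241, 0.00118 to 0.896 over all settings). Ndufa4l2 rose by 0.66 ± 0.08 (adjusted p = 0.00183). With the normal diet array 120 left out 29 members and 2480 of all genes passed, and with array 117 left out 31 members and 2316 of all genes, against 48 members and 4679 genes with both.

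Few of these transcripts passed between the diets. Non-tumour tissue of high fat diet livers differed from normal diet livers in 1 of 83 members, where 3.84% of all genes passed (2.03% lower, 1.81% higher). At an unadjusted p under 0.05, 9 members were lower and 4 higher. The median was -0.05. In 16 members every non-tumour array lay below both normal diet livers and in 9 above, where 23% and 21% of all genes did so. The single call, Uqcr11, a small complex III subunit, read 3044, 2924 and 2829 in non-tumour tissue and 3709.9 and 3593 in normal diet livers (-0.32 ± 0.04, adjusted p = 0.0177). It did not pass with blank subtraction (adjusted p = 0.165), with scaling to the same median (0.137), or without non-tumour array 186 (0.0607) or normal diet array 117 (0.120) or 120 (0.0976), and its adjusted p over all settings was 0.00815 to 0.999. In tumours Uqcr11 read 2544, 2425 and 2386, lower again than in non-tumour tissue (-0.26 ± 0.04, adjusted p = 0.00478), a call lost with blank subtraction (adjusted p = 0.102, 0.0031 to 0.955 over all settings). Atp5md read 2272, 1912 and 2331.5 in non-tumour tissue and 2789 and 3467 in normal diet livers (-0.52 ± 0.14, adjusted p = 0.0961). It passed as lower with the authors' values (-0.83, adjusted p = 0.0488) and with array weights (adjusted p = 0.0499), and over all settings adjusted p was 0.0488 to 0.999. A member that misses the threshold here may still differ by less than 2 and 3 arrays can show.

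How arrays are brought to one scale moved the size of these differences and, between the diets, their sign. Between tumour and non-tumour tissue the members' median was -0.37 with quantile normalization, -0.59 with scaling to the same median and -0.66 with the authors' values. With scaling to the same median 58 members fell and 2 rose, where 15.7% of all genes fell and 9.36% rose. With the authors' values 61 fell and 2 rose, where 15.2% of all genes fell and 9.69% rose. Between non-tumour tissue and normal diet livers it was -0.05, 0.10 and -0.31 under the same 3 scalings. Scaling to the same median called 5 members higher and 1 lower (6.45% and 1.9% of all genes), and the authors' values called 0 higher and 3 lower (limma, 1.85% and 2.71% of all genes). Between tumour and normal diet livers scaling to the same median called 51 members lower and 2 higher (24.9% and 15.9% of all genes), and the authors' values 72 lower and 2 higher (22.4% and 9.92%). On the authors' scale the median of all genes also shifted, by -0.12 between the diets and by -0.20 between tumour and normal diet livers. Relative to that shift the members stood at -0.19 and -0.78. In the deposited values the 75th percentile of an array was 91.6 to 97.6 in tumours, 98.7 to 102 in non-tumour tissue and 108 to 109 in normal diet livers, a spread that quantile normalization removes. Its part in the members' difference was not tested.

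**Figure D4:**
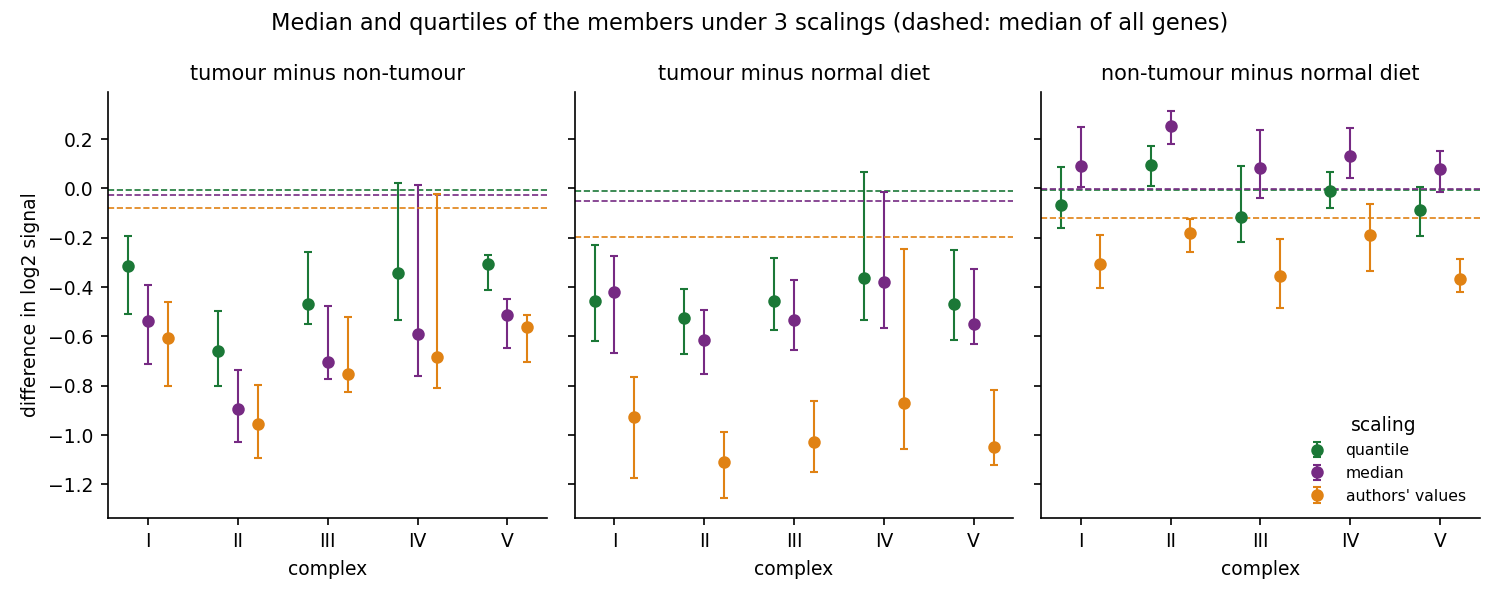
Median (points) and quartiles (bars) of the members' log2 differences for each complex under 3 scalings, with the median of all genes under the same scaling as a dashed line. All complex medians lie below 0 for tumour minus non-tumour and tumour minus normal diet, whereas between the diets they lie on either side of 0 depending on the scaling.

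Genes that serve the same pathway were counted in the same way between tumour and non-tumour tissue, for comparison with 13.4% lower and 12% higher among all genes. Of 16 citric acid cycle and pyruvate dehydrogenase genes 10 fell and 0 rose (limma, and 0 at an unadjusted p under 0.05), with a median of -0.52. Fh1, fumarate hydratase, which follows succinate dehydrogenase in the cycle, read 713, 669 and 642 in tumours, against 1206, 1149 and 1354 in non-tumour tissue (-0.87 ± 0.08, adjusted p = 0.000829). Suclg2, a succinate-CoA ligase subunit, fell by 0.88 ± 0.13 (adjusted p = 0.00457). Of 18 genes for mobile carriers and coenzyme Q 11 fell and 0 rose (limma, and 0 at an unadjusted p under 0.05), with a median of -0.39. Etfdh, which brings electrons from fatty acid oxidation to coenzyme Q, read 908, 1071 and 873 in tumours and 1679, 2438 and 1984 in non-tumour tissue. It fell by 1.09 ± 0.14 (adjusted p = 0.00305), more than any subunit of the complexes. Cycs, cytochrome c, fell by 0.80 ± 0.08 (adjusted p = 0.000992).

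Of 44 genes listed as assembly factors, a list that also holds the ATP synthase inhibitor Atpif1, 18 fell and 4 rose (Atpif1, Atpaf1, Atpaf2 and Coa3), with a median of -0.23. Ndufaf4 (-0.73 ± 0.05, adjusted p = 0.000527), Nubpl (-0.73 ± 0.10, adjusted p = 0.00389) and Acad9 (-0.73 ± 0.08, adjusted p = 0.00133) help to build complex I. Atpif1, which stops the ATP synthase from running backwards, rose by 1.25 ± 0.13 (adjusted p = 0.00152). Its signals were 830, 949.7 and 1184 in tumours, against 394, 442 and 398 in non-tumour tissue and 342 and 394 in normal diet livers, with no overlap. Atpaf2, an assembly factor for the catalytic head of the ATP synthase, rose by 0.54 ± 0.06 (adjusted p = 0.0018).

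Of 77 mitochondrial ribosomal protein genes 27 fell and 3 rose (0 under scaling to the same median and with the authors' values), with a median of -0.15. Mrpl14 of the large subunit fell by 0.73 ± 0.11 (adjusted p = 0.00463). Import genes had a median of -0.03, with 5 of 22 lower and 2 higher. Tomm40, the channel of the outer membrane, rose by 1.13 ± 0.07 (adjusted p = 0.000413), with 240, 215 and 259 in tumours, against 107, 108 and 109 in non-tumour tissue and 108 and 121 in normal diet livers. Timm9, a small chaperone of the intermembrane space, fell by 0.86 ± 0.07 (adjusted p = 0.000796). ADP/ATP and phosphate carriers, porins and uncoupling proteins gave 2 higher and 2 lower genes of 8, with a median of -0.04, and under scaling to the same median 0 rose and 4 fell.

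Of 18 regulators of mitochondrial biogenesis and mitochondrial DNA 4 fell and 3 rose, with a median of -0.14. Ppargc1a, a coactivator known to raise oxidative phosphorylation genes, read 206, 229.8 and 221 in tumours, against 115, 132 and 115 in non-tumour tissue and 132 and 125.5 in normal diet livers. It rose by 0.86 ± 0.07 (adjusted p = 0.000641), while the members' median was negative. With the mean of all its probes Ppargc1a did not pass. Esrrg, an estrogen-related receptor, rose by 0.63 ± 0.09 (adjusted p = 0.00437), and Pprc1, another coactivator of this family, by 0.36 ± 0.05 (adjusted p = 0.00496). Polg2, the accessory subunit of the mitochondrial DNA polymerase, fell by 0.47 ± 0.04 (adjusted p = 0.000987). Nrf1 (0.12 ± 0.05, adjusted p = 0.129), Gabpa (-0.04 ± 0.05, adjusted p = 0.652) and Tfam (-0.24 ± 0.11, adjusted p = 0.167), the factors named most often for these promoters and for mitochondrial DNA, did not pass.

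**Figure D5:**
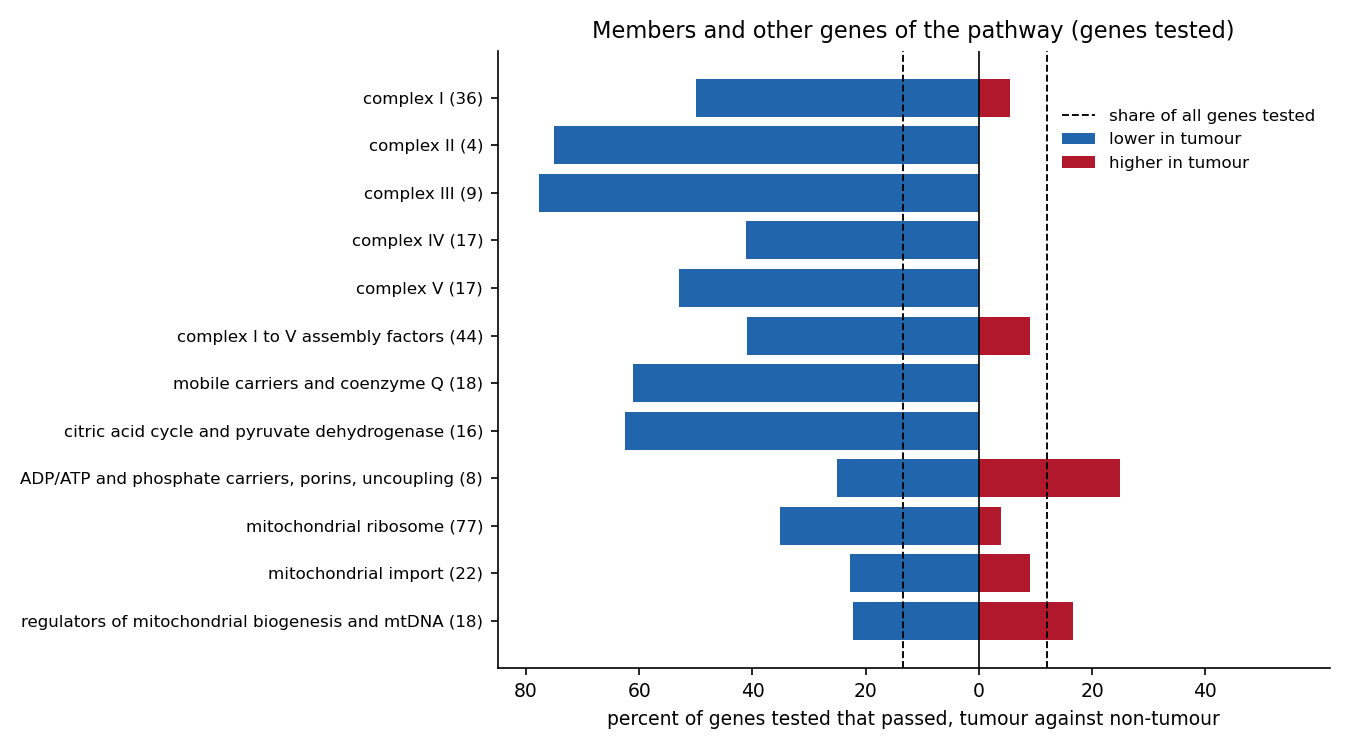
Share of tested genes that passed as lower (left of 0) or higher (right of 0) in tumour against non-tumour tissue, for the 5 complexes and 7 lists of other mitochondrial genes, with the number tested in parentheses. Dashed lines mark the shares among all genes tested, 13.4% lower and 12% higher.

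Markers of the cell types that liver tissue can hold moved with the tumours in part. Of 10 hepatocyte markers 4 rose (Apoa1, Fgb, Serpina1a and Trf) and 2 fell (Apoa2 and Ass1), and Alb did not pass (0.04 ± 0.04, adjusted p = 0.558). Their summed deposited level was 245630 to 274490 in tumours, 230940 to 250430 in non-tumour tissue and 287680 to 296300 in normal diet livers. Deposited sums are on the authors' scale. There the sum over all tested genes was 3656800 to 4111100 in tumours and 4296500 to 4637100 in non-tumour tissue. In normal diet livers it was 5123800 to 5270200. With normalized signals the hepatocyte markers' median log2 fold change against normal diet livers was 0.26 in tumours (3 higher, 2 lower) and 2.38e-05 in non-tumour tissue. Kupffer cell markers Vsig4 and Clec4f fell, 2 of 6 macrophage markers (Clec4f did not pass in the paired fit, adjusted p = 0.0631), with a summed level of 245 to 380 in tumours, 518 to 874 in non-tumour tissue and 637 to 1011 in normal diet livers. The erythroid markers Alas2 and Car1 both fell, 2 of 2 tested, with sums of 108 to 118 in tumours, 336 to 400.3 in non-tumour tissue and 473 to 575 in normal diet livers. Slc4a1 was not listed. Endothelial Pecam1 rose (1 of 5), and stellate cell Lrat (1 of 6) and cholangiocyte Cftr (1 of 5; 0.0507 as adjusted p in the paired fit) fell. Endothelial sums were 267.5 to 350.1 in tumours, 222 to 282 in non-tumour tissue and 265 to 279 in normal diet livers. Stellate and fibroblast sums were 583 to 791 in tumours, 1074 to 1495 in non-tumour tissue and 867 to 923.5 in normal diet livers. A sum follows its brightest genes. Of the 6 stellate and fibroblast markers, 4 had a positive and 2 a negative log2 fold change against non-tumour tissue, with a median of 0.02. Cholangiocyte sums were 95.7 to 126 in tumours, 97.9 to 111 in non-tumour tissue and 92.5 to 105 in normal diet livers. Of 5 lymphocyte markers 0 passed (limma, and 0 at an unadjusted p under 0.05), with sums of 55.8 to 90.7 in tumours, 80.0 to 91 in non-tumour tissue and 56.5 to 59.9 in normal diet livers. Among adipocyte markers Adipoq was not listed and Cidea, which steatotic hepatocytes also express, fell (1 of 3 tested), with sums of 209 to 476 in tumours, 1444 to 1927 in non-tumour tissue and 38.5 to 113 in normal diet livers. The part of cell type makeup in the members' difference was not tested.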

How the data were processed

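RNA from 8 mouse liver samples was read on single-colour arrays of 27456 spots, of which 2736 were blank and 23473 probes remained after control and empty spots. On each array the deposited intensities followed the spot medians in a straight line (squared correlation of 1), and their median was 25. They were taken as spot medians minus the mean of the blank spots, scaled by the authors with 1 factor per array. A straight line does not show which value was subtracted. Annotation gave 20690 probes a single symbol and 2783 none. Symbols are those of GEO's platform annotation, and promoter windows those of RefSeq (GRCm38.p6).

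Here the scanner's spot medians were corrected by normexp with blank spots as negative controls and offset 50, quantile normalized and taken to log2, a scale that differs from the linear deposited values. Group means were fitted over all 8 arrays in limma 3.58.1 (R 4.3.3) with empirical Bayes and Benjamini-Hochberg adjustment over 16798 genes listed by the authors on all arrays of at least 1 group. There were 5 residual and 1.49 prior degrees of freedom. The brightest probe stood for a gene. On simulated data 73.1% of genes changed by 0.5 log2 between tumour and non-tumour tissue were called, 98.5% of those changed by 1, and 0.0542% of unchanged genes. Between non-tumour tissue and normal diet livers 68.7% of genes changed by 0.5 were called. In each simulated comparison 16598 of 16798 genes were unchanged, the noise was independent and no mouse effect was included. In the data 25.4% of genes passed between tumour and non-tumour tissue, so these rates need not hold there.

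Per the labels, tumour and non-tumour samples with the same mouse number were taken from 1 liver, so the samples are paired. Their deviations from the group means correlated at 0.443, 0.148 and 0.167 (different mice -0.275 to 0.028). Deviations cancel out within a group, so same-mouse and different-mouse values are not independent and do not test the pairing. The main fit has no term for mouse, and its standard errors and adjusted p do not use the pairing. The paired fit, which is the fit with mouse as a block (the replicate block), was run as another setting. Some members passed in only 1 of these fits. Further settings changed the background, offset, scaling, filter, probe choice, groups fitted or array weights, or left out each array in turn. Members, lists and the rule for named genes (the largest and smallest changes per complex, all members that rose, the succinate dehydrogenase genes and catalytic subunits, with further members and pathway genes chosen after their values were seen) were chosen with earlier results of these data known. Genes of mitochondrial DNA were not analysed here. Each tissue sample had 1 array, and that number limits the precision.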

Additional observations from a re-analysis of the deposited data

How the results depend on the processing

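Over 19 other settings, values moved as follows. With the local-background correction, between tumour and non-tumour tissue 0 members were called (12 lower and 1 higher at an unadjusted p under 0.05), between non-tumour tissue and normal diet livers 0 (3 lower and 2 higher unadjusted), and between tumour and normal diet livers 1. In that setting the fold change of tumour against non-tumour tissue changed sign for Cox6c (0.65) and Cox7b (0.46), and that of tumour against normal diet livers for Cox5a (0.52), Cox5b (0.41), Cox6c (1.70), Cox7b (1.26) and Uqcrc2 (0.80). The local background followed the signal of its own spot, at rank correlations of 0.902 to 0.960, and its part in this was not tested. Between tumour and non-tumour tissue the members' median was -0.59 with scaling to the same median and -0.66 with the authors' values, and counts over the settings other than the local background and left-out arrays were 37 to 63. With the replicate block 46 members were called, as without it. Leaving out single arrays gave 33 to 43. Between non-tumour tissue and normal diet livers 6 members were called with scaling to the same median (median 0.10), 3 with the authors' values (median -0.31), 2 with only the compared groups fitted, 4 with array weights, and 0 to 3 when single arrays were left out, where 1404, 700, 828, 1424 and 95 to 783 of all genes were called, against 1 member and 645 genes as reported. The share of higher among all called genes there was 47.1%, against 77.2% with scaling to the same median and 61.1% with blank subtraction. Between tumour and normal diet livers the authors' values called 74 members (median -0.98, and Cox6a1 turned to -0.49), with 30.7% of all called genes higher against 46.2%, and leaving out single arrays gave 29 to 47. Scan date or slide as a block was not run, since the headers hold none. For these reversed or moved values the cause was not tested. Probes near the blank level, such as Ndufa3, Ndufc1 and Ndufb2, limit what can be read for their genes.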

Other observations

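For 4 members the array holds more than 1 probe, which did not always read alike in the deposited intensities. The second probe of Uqcrc2 averaged 71.2 in tumours, 106 in non-tumour tissue and 179 in normal diet livers, lower in tumours as was the probe used (1750, 3095 and 3561 for the same groups). For Ndufb5 the probe used averaged 68.5 in tumours, 127 in non-tumour tissue and 149 in normal diet livers, whereas the dimmer one averaged 17.4 in tumours, 18.8 in non-tumour tissue and 35.4 in normal diet livers. The second probe of Ndufa13 was dim, with 8.8 in tumours, 6.87 in non-tumour tissue and 9.8 in normal diet livers, against 2714, 3420 and 3900 for the probe used. For Cox6b2 the probe used averaged 37.7 in tumours, 36.5 in non-tumour tissue and 34.15 in normal diet livers. One of its dim probes averaged 9.07 in tumours, 3.73 in non-tumour tissue and 3.75 in normal diet livers, and the other 3.73 in tumours, 4.53 in non-tumour tissue and 3.9 in normal diet livers.

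Non-tumour array 1 was the lowest of its group for 33 of 83 members and the highest for 32. Non-tumour array 117 was the lowest for 26 and the highest for 25, and non-tumour array 186 for 24 and 26. Tumour array 1 had similar counts in its own group, lowest for 33 and highest for 31. Sdhd had a tumour against non-tumour log2 fold change of -0.63 without non-tumour array 1 and -0.38 with it.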
